A study of Mus musculus with 4 samples.

Results

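The long noncoding RNAs of the developing brain described here are Malat1, Neat1, Miat, Rmst, Sox2ot, Pantr1, Snhg11 and Dlx6os1, 8 of the 27293 genes counted by RNA-seq in embryonic mouse telencephalon. They were taken by name, with no threshold on a measured value, although earlier results of these data were known when the list was drawn up. 7 were found under these names and Rmst, listed as RMST_1, was found by its Ensembl identifier ENSMUSG00000112117. The study asked which transcripts depend on STING, an adaptor protein of innate immune signalling, in neural progenitors. RNA came from telencephalic tissue (cerebral cortex in the study's methods, forebrain in its figure legend) of C57BL/6 embryos at embryonic day 13 (E13). In all, 4 libraries were made, 2 labelled WT and 2 of the genotype STINGf/f;Nestin-Cre, named cKO here, in which Cre expressed from the Nestin promoter recombines a floxed STING allele. Nestin-Cre acts in neural progenitors and their progeny, so that microglia, blood and mesenchyme would keep the gene. In which cells it recombined is not measured by these data. The number of embryos behind a library and any treatment are not stated, and the title of WT 2 carries an abbreviation, nes, that is not explained and that WT 1 does not carry.

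Long noncoding RNAs are transcripts without a long reading frame, and many of them stay in the nucleus. Malat1 is concentrated in nuclear speckles, which are stores of splicing factors. Neat1 is the scaffold of paraspeckles, another nuclear body. Miat, also called Gomafu, forms a nuclear compartment of its own in neural cells. Rmst is the host of a microRNA and is known from dorsal midline and midbrain tissue, where it interacts with the transcription factor SOX2. Sox2ot is transcribed across the Sox2 gene, and Pantr1 starts next to Pou3f3 and runs away from it. Dlx6os1, which includes the RNA known as Evf2, overlaps Dlx6 on the opposite strand and is expressed with the Dlx genes in the ventral telencephalon, where GABAergic interneurons arise. Snhg11 is a host gene of small nucleolar RNAs (snoRNAs) that is enriched in neurons.

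The libraries were of similar depth, between 17209654 and 18533391 counts, and the 8 RNAs together made up 0.167% of all counts. The STING gene itself, listed as Tmem173, had between 18 and 22 counts in each of the 4 libraries (log2 fold change 0.02, standard error 0.45). A count over a whole gene includes exons outside the floxed part and cells without Cre, so it does not check the genotype, and WT and cKO name the libraries by their labels throughout. Reads on Uty, Kdm5d, Eif2s3y and Ddx3y, all Y-linked, summed to 0 in WT 2 and between 1848 and 3002 in the others, and none of the 8 RNAs is X- or Y-linked. WT 1 stood apart in markers of cell types other than neurons and their progenitors. Markers of choroid plexus and mesenchyme summed to 395 normalized CPM (counts scaled to equal library size with TMM factors) in WT 1 and to between 54.1 and 89 in the other libraries. Sample labels did not give a litter, a date or a batch.

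The starts of Snhg11 and Dlx6os1 are shown first, because these RNAs had the clearest separation between the WT and cKO libraries. Each sequence runs from 250 bases before to 50 bases after a RefSeq transcription start (GRCm38.p6) in the direction of transcription. Capitals mark matches, on either strand, to the motifs searched, which were the TATA box TATAAA, the CCAAT box, the homeodomain core TAATTA (of the class to which the Dlx factors belong), the E-box CAGATG, a further E-box CAGCTG, and the NF-κB motif. No matches overlapped.
Snhg11, chr2:158375463-158375762 (plus strand): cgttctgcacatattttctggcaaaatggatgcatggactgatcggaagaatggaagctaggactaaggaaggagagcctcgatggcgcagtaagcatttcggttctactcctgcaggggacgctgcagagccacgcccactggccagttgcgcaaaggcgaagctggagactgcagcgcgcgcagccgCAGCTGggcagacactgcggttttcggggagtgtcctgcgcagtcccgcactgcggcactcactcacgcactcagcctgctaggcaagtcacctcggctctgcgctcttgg
Dlx6os1, first of 2 RefSeq starts, chr6:6869484-6869783 (minus strand): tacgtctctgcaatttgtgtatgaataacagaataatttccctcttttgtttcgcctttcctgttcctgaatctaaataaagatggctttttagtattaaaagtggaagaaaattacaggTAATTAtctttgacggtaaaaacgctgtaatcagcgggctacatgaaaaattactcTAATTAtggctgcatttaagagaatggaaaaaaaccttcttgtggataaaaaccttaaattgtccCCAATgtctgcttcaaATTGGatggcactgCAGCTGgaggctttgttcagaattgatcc
The window of the first Dlx6os1 start held 2 matches to TAATTA, at -130 and -74 from the start, 2 to CCAAT (1 read as ATTGG on this strand) and 1 to CAGCTG. The window of the other Dlx6os1 start, not shown, held TATAAA at -86 and -30 (the latter read as TTTATA) and TAATTA at -174. Of 32817 promoters of the same length, 13.6% held TATAAA, 5.3% held TAATTA, 37.4% held CCAAT and 16.3% held CAGCTG. The Snhg11 window held a single match, CAGCTG at -61. It was 60% GC with 21 CpG dinucleotides, whereas the first Dlx6os1 window was 35.7% GC with 5 CpG, against a median of 7 CpG over all promoters. No match to the NF-κB motif, which 4.5% of promoters held, lay in any of these windows. A match is a match of letters and shows no binding. Promoter entries were found for 4 of the 8 RNAs, the others being Malat1 and Miat.

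Rmst contains the hairpin of Mir135a-2, whose mature strands are given here because its reads are compared with those of Rmst below. Capitals mark the seed, bases 2 to 8.
mmu-miR-135a-5p, chr10:92072141-92072163 (minus strand, GRCm38.p6): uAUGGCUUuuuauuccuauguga
mmu-miR-135a-2-3p, chr10:92072104-92072124 (minus strand, GRCm38.p6): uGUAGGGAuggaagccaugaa

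All 8 RNAs passed the filter on low counts and were tested among 16145 genes. The level was lower in cKO for 7 of them and higher for Pantr1. Their median log2 fold change (cKO against WT) was -0.38, compared with -0.01 over all genes tested, of which 52.1% were below 0. This direction leaned on WT 1, the highest library for 6 of the 8 (75%, against 25.1% of all genes). Without WT 1 the value was above 0 also for Miat (0.10), Rmst (0.50) and Sox2ot (0.01). It stayed below 0 for Malat1 (-0.26), Neat1 (-0.05), Snhg11 (-0.49) and Dlx6os1 (-0.38). None had a Benjamini-Hochberg adjusted p under 0.05 from edgeR's quasi-likelihood test (0 of 16145 genes, 0%), and the adjusted p was 0.9999 for each of the 8. None met the study's thresholds of a 2-fold change and an unadjusted p of at most 0.05, which 131 genes (0.811%) met. Snhg11 and Dlx6os1 had an unadjusted p under 0.05, both lower in cKO, where 0.997% of all genes did so, and none was among the 0.235% that were higher. By DESeq2 none of the 8 had an adjusted p under 0.05 either. For Malat1, Snhg11 and Dlx6os1 the cKO libraries were both under the lower WT library, as for 10.8% of all genes, and for Pantr1 both were over the higher one, as for 11.0%. In the other 4 the groups overlapped. With 2 libraries a group an exact permutation test cannot give a two-sided p below 0.333, so it was not used. The p-values weigh each group difference against the spread within groups, which is estimated partly from all genes together. That spread comes from these 4 libraries and may be partly technical.

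**Figure D1:**
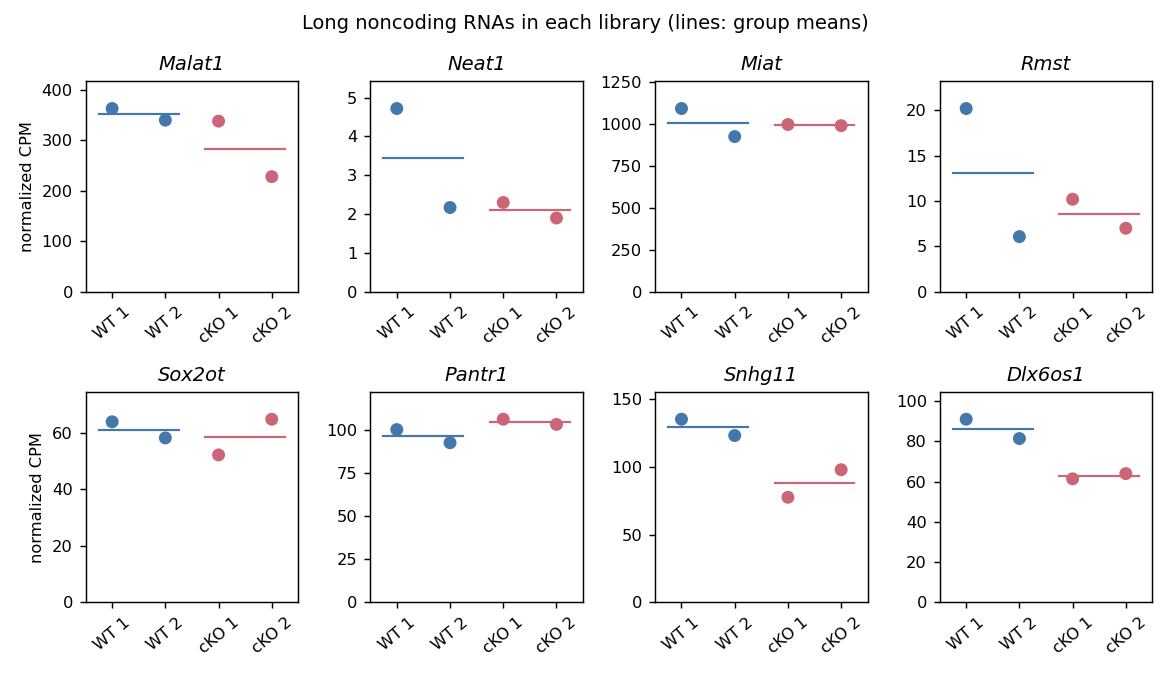
Normalized CPM (y axis, linear from 0, a separate scale for each gene) of the 8 RNAs in each of the 4 libraries (x axis), as points, with lines at the group means. Snhg11 and Dlx6os1 were lower in both cKO libraries, cKO 2 was the low library for Malat1, and WT 1 was the high library for Neat1 and Rmst.

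Dlx6os1 (ENSMUSG00000090063, chromosome 6 from 6820189 to 6871592, minus strand, listed as antisense RNA) was counted 1582 times in WT 1 and 1498 times in WT 2, against 1123 times in cKO 1 and 1144 times in cKO 2. Both cKO libraries were low and close to each other, and the gap between the lower WT and the higher cKO library was 27.1% in normalized CPM. The group means were 86.2 ± 6.81 normalized CPM in WT and 62.7 ± 1.87 in cKO (SD, n = 2 each). The log2 fold change was -0.46 (standard error 0.15, 95% interval -0.80 to -0.11), a ratio of 0.728, with an adjusted p of 0.9999 from edgeR and an unadjusted p of 0.0156. With single libraries left out it lay between -0.52 and -0.38, and its unadjusted p was 0.237 without WT 1 and 0.0921 without WT 2.

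Dlx6, a homeobox gene of forebrain interneuron development, lies inside Dlx6os1 on the opposite strand and shares no annotated exon base with it. Its counts were 322 and 268 (WT 1, WT 2) and 236 and 339 (cKO 1, cKO 2). The level of Dlx6 was thus lowest in cKO 1 and highest in cKO 2, and its log2 fold change was -0.05. Dlx5, the next gene of the cluster, had counts of 1084, 1119, 836 and 1351 in that order, with a log2 fold change of -0.02. The ratio of Dlx6os1 to Dlx6 counts was 4.91 and 5.59 in WT and 4.76 and 3.37 in cKO. Against Dlx5 it was 1.46 and 1.34 in WT and 1.34 and 0.847 in cKO. In both ratios cKO 2 was the lowest library, while cKO 1 lay near the WT libraries. Reads on both strands could not be told apart if counting ignored strand, which is not stated.

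Genes of the ventral telencephalon were low together with Dlx6os1 in cKO 1 but mostly not in cKO 2. Of 16 markers tested, 15 had a log2 fold change below 0 with a median of -0.23, 5 were lower in both cKO libraries (31.2%, against 10.8% of all genes), and 12 were lowest in cKO 1 (75%, against 27.3% of all genes). Their summed level was 1374 and 1314 normalized CPM in WT, 900 in cKO 1 and 1352 in cKO 2. Nkx2-1, which specifies the medial ganglionic eminence, was counted 1407, 1035, 262 and 1166 times in the same order. Dlx1, a regulator of interneuron migration, had 6724, 6832, 4490 and 6795. Both were low in cKO 1 only. Gad1, a GABA-synthesising enzyme, was low in both cKO libraries, at 1388 and 1352 counts for WT against 1052 and 981 for cKO (log2 fold change -0.45, unadjusted p of 0.0179). Gad2, its paralogue, stood at 2020 and 2128 counts for WT against 1786 and 1773 for cKO. Sp8, Isl1 and Ebf1 were also lower in both cKO libraries, with their lowest level in cKO 2. The share of ventral tissue in each dissection was not measured apart from these markers, and its part in the Dlx6os1 difference was not tested. With cKO 1 left out, the log2 fold change of Dlx6os1 was -0.43. In bulk tissue, fewer cells of a type and less RNA per cell cannot be told apart.

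**Figure D2:**
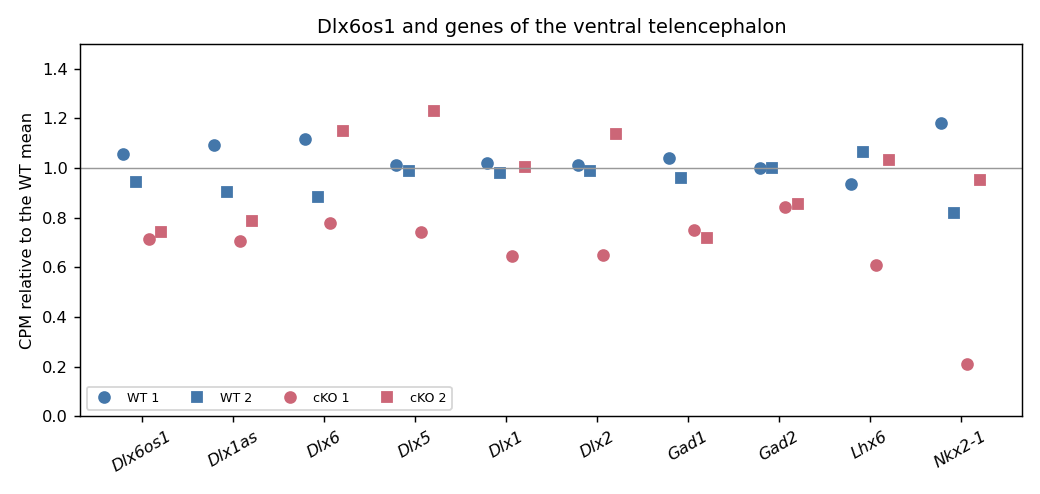
Normalized CPM divided by the WT mean (y axis, linear from 0) of Dlx6os1 and 9 genes expressed in the ventral telencephalon (x axis), with circles for replicate 1 and squares for replicate 2 of WT and cKO. Dlx6os1, Dlx1as, Gad1 and Gad2 lay below 1 in both cKO libraries. Dlx1, Dlx2, Dlx5, Dlx6, Lhx6 and Nkx2-1 were low in cKO 1 and not below both WT libraries in cKO 2. Sp8, Isl1 and Ebf1 of the marker list, which were lower in both cKO libraries and lowest in cKO 2, are not shown.

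Snhg11 (ENSMUSG00000044349, chromosome 2 from 158375638 to 158386145, plus strand) is listed as protein coding in the annotation used, although it is known as a noncoding host gene. It was counted 2355 times in WT 1 and 2269 times in WT 2, against 1418 times in cKO 1 and 1747 times in cKO 2. The WT libraries were close to each other and both cKO libraries were lower, with a gap of 26% between the groups. Mean levels were 129 ± 8.64 normalized CPM in WT and 87.6 ± 14.3 in cKO (SD, n = 2 each). The log2 fold change of -0.56 (standard error 0.17, 95% interval -0.95 to -0.18) is a ratio of 0.678, with an unadjusted p of 0.00974 and an adjusted p of 0.9999 from edgeR. It lay between -0.73 and -0.40 with single libraries left out, with an unadjusted p of 0.113 without WT 1. This was the smallest unadjusted p among the 8 RNAs.

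Other snoRNA host genes did not share the direction of Snhg11 as a group. Of 12 tested, 4 had a log2 fold change below 0 and 8 above it, and their median was 0.14. Snhg14, the host of an imprinted snoRNA cluster expressed in neurons, had an unadjusted p under 0.05, with 959 and 640 counts (WT 1, WT 2) against 585 and 271 (cKO 1, cKO 2; log2 fold change -0.93, unadjusted p of 0.0309). It was lower in both cKO libraries, but its libraries spread more widely than those of Snhg11. The most abundant others were Snhg17 (log2 fold change -0.18), Snhg5 (0.10) and Snhg1 (-0.16). The snoRNA gene Gm25129 inside Snhg11 had 1 count or none in every library, so the table gives no measure of the snoRNA itself. Neuron markers, which could move with a neuron-enriched RNA, had a median log2 fold change of -0.07 over 15 genes with none past an unadjusted p of 0.05. Their summed level was 6643 and 7678 normalized CPM in WT and 7247 and 6597 in cKO.

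Malat1 (ENSMUSG00000092341, chromosome 19 from 5795690 to 5802672, minus strand) was counted 6308 times in WT 1, 6260 times in WT 2, 6191 times in cKO 1 and 4080 times in cKO 2. In normalized CPM these were 363, 340, 338 and 228. One library, cKO 2, was low, and cKO 1 lay within 0.475% of WT 2. By so small a margin the groups overlapped with RLE size factors, with DESeq2 and with a filter of at least 10 counts, and were apart with upper-quartile scaling, without a filter and with the replicate block. Mean levels were 351 ± 16.1 in WT and 283 ± 77.8 in cKO (SD, n = 2 each). The log2 fold change was -0.31 (standard error 0.20, 95% interval -0.78 to 0.16), -0.04 without cKO 2 and -0.62 without cKO 1.

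Genes of nuclear speckles, in which Malat1 resides, did not all have the low level in cKO 2. Of 13 nuclear speckle and splicing proteins, 10 (76.9%) were lowest in cKO 2, compared with 33.4% of all genes tested and 34.9% of 1231 genes of long noncoding biotypes. None of the 13 had an unadjusted p under 0.05, and their median log2 fold change was -0.07. Srsf1, a splicing factor, had 10695 and 8212 counts (WT 1, WT 2) and then 10675 and 5168 (cKO 1, cKO 2). Srrm2, a core speckle protein and the most abundant of the list, had 20627, 21759, 21924 and 20580 counts and varied little. Snrnp70 and U2af2, splicing factors that are the other two of the 4 most abundant, were highest in cKO 2, at 848 and 553 normalized CPM. The genes closest to Malat1 in their pattern over the 4 libraries were Pcmtd2, Trnt1 and Bhlhb9, at a distance of 0.03 to 0.04 on the log2 scale. Within a distance of 0.2 there were 365 of 11525 genes, so the pattern was common. Whether cKO 2 differed in RNA quality or handling was not tested.

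Neat1 (ENSMUSG00000092274, chromosome 19 from 5824708 to 5845478, minus strand), the neighbour of Malat1, was the least abundant of the 8. It was counted 82 times in WT 1 (exact Poisson 95% interval 65.2 to 102), 40 in WT 2 (28.6 to 54.5), 42 in cKO 1 (30.3 to 56.8) and 34 in cKO 2 (23.5 to 47.5). These intervals cover counting error only. One library, WT 1, was high, and the counting intervals of the other 3 overlapped. Mean levels were 3.44 ± 1.8 normalized CPM in WT and 2.1 ± 0.278 in cKO (SD, n = 2 each). The log2 fold change of -0.71 (standard error 0.45, 95% interval -1.75 to 0.33) became -0.05 without WT 1 and -1.15 without WT 2. Paraspeckle proteins, which bind Neat1, gave a median of 0.00 over 12 genes, with 6 below 0 and 6 above. Nono, a core paraspeckle protein, had a log2 fold change of -0.01, and no paraspeckle gene had an unadjusted p under 0.05. Frmd8, the nearest coding gene, had a log2 fold change of 0.13.

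Miat (ENSMUSG00000097767, chromosome 5 from 112213228 to 112229395, minus strand) was the most abundant of the 8 and, by normalized CPM, of all 1231 tested genes of long noncoding biotypes. It ranked 60 among all genes tested. The WT libraries held 18976 (WT 1) and 17006 (WT 2) counts, and the cKO libraries 18223 (cKO 1) and 17673 (cKO 2). The cKO libraries lay between the WT libraries. The means were 1007 ± 119 normalized CPM in WT and 992 ± 4.89 in cKO (SD, n = 2 each), with a log2 fold change of -0.02 (standard error 0.17, 95% interval -0.40 to 0.36). Annotated exons of Gm26953 on the opposite strand share 24.3% of the exon bases of Miat. Gm26953 itself had between 35 and 67 counts. How reads on the shared bases were assigned is not stated, so these counts do not measure the effect of the overlap on Miat.

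Rmst (ENSMUSG00000112117, chromosome 10 from 92071037 to 92165170, minus strand) varied most between libraries, by 3.32-fold. It was counted 351 times in WT 1, 112 times in WT 2, 186 times in cKO 1 and 125 times in cKO 2. The highest and the lowest library were both WT, so the cKO values fell inside the WT range. The levels were 13.1 ± 9.97 normalized CPM in WT and 8.58 ± 2.24 in cKO (SD, n = 2 each). The log2 fold change of -0.61 (standard error 0.50, 95% interval -1.76 to 0.54) turned to 0.50 without WT 1 and was -1.22 without WT 2. An RNA on the opposite strand, Gm26700, which was not analysed here, shares 26.3% of the annotated exon bases of Rmst.

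Counts were analysed for 2 small RNA genes inside Rmst. Gm27544, listed as a miscellaneous RNA, had 115 and 37 counts (WT 1, WT 2) and then 82 and 61 (cKO 1, cKO 2). The Mir135a-2 hairpin, whose mature strands are given above, had only 19, 9, 16 and 12 in this order. Both were highest in WT 1 and lowest in WT 2, as Rmst was. Reads on a hairpin do not measure the mature microRNA. Gm27544 shares 50 exon bases with Rmst, and how reads on them were assigned is not stated. The ratio of Rmst to Gm27544 counts was 3.05 and 3.03 in WT and 2.27 and 2.05 in cKO.

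Genes marking tissue at the edge of the telencephalon were high in the library where Rmst and Neat1 were high. Of 11 dorsal midline, diencephalon and midbrain markers tested, 10 were highest in WT 1 (90.9%, against 25.1% of all genes), and the list summed to 142 normalized CPM in WT 1 and 77.9 in WT 2, against 85.3 in cKO 1 and 74.3 in cKO 2. Their median log2 fold change was -0.47, with all 11 below 0. Otx2, a midbrain and choroid plexus factor, met the study's thresholds with 358, 124, 71 and 125 counts. Wnt8b and Lmx1a, which mark the cortical hem and the roof plate, had 249, 29, 140 and 78 and 83, 6, 20 and 19 counts. Foxa1 and Foxa2, floor plate genes, had 4 counts or fewer in every library. Wnt8b and Lmx1a thus shared with Rmst a high level in WT 1 and the lowest level in WT 2, while Otx2 was lowest in cKO 1. Most of the list did not share the low level in WT 2. Of the 11, 4 were lowest in cKO 1 (36.4%, against 27.3% of all genes) and 3 in cKO 2 (27.3%, against 33.4%).

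All 11 tested markers of choroid plexus and mesenchyme were highest in WT 1 as well (100%, against 25.1% of all genes). Of these, 7 met the study's thresholds, as 0.811% of all genes did. They were Htr2c, Aqp1, Sulf1, Kcne2, Col1a1, Col1a2 and Otx2, the last of which is also in the dorsal midline list. Col3a1 and Pdgfra, described below, did not meet the thresholds. These lists were drawn up with such differences already known, so their counts are a description. Col3a1, a fibrous collagen, had 1740, 421, 628 and 282 counts. Pdgfra, a receptor of mesenchymal cells, had 259, 95, 129 and 91 counts and was one of the 3 genes closest to Rmst in pattern, with Col23a1 and Gpc3, at distances of 0.21 to 0.29. No gene came within 0.2 of Rmst. For Neat1 the closest were Hspa12b, 2610035F20Rik and Bnip3, at 0.06 to 0.11, with 7 genes within 0.2. Markers of microglia, blood and endothelium were highest in WT 1 for 11 of 13 genes (84.6%, against 25.1% of all genes). They summed to 1058 normalized CPM in WT 1 and 454 to 658 in the others. All 13 were lowest in cKO 1 (100%, against 27.3% of all genes), the library in which Snhg11 and Dlx6os1 were also lowest. Of the 13 markers, 4 were lower in both cKO libraries (30.8%, against 10.8% of all genes). Their part in the Snhg11 and Dlx6os1 values was not tested. Flt1 and Cdh5, endothelial receptors, had log2 fold changes of -0.64 and -0.54 with unadjusted p under 0.05. The part of these cells in the Rmst and Neat1 values was not tested.

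**Figure D3:**
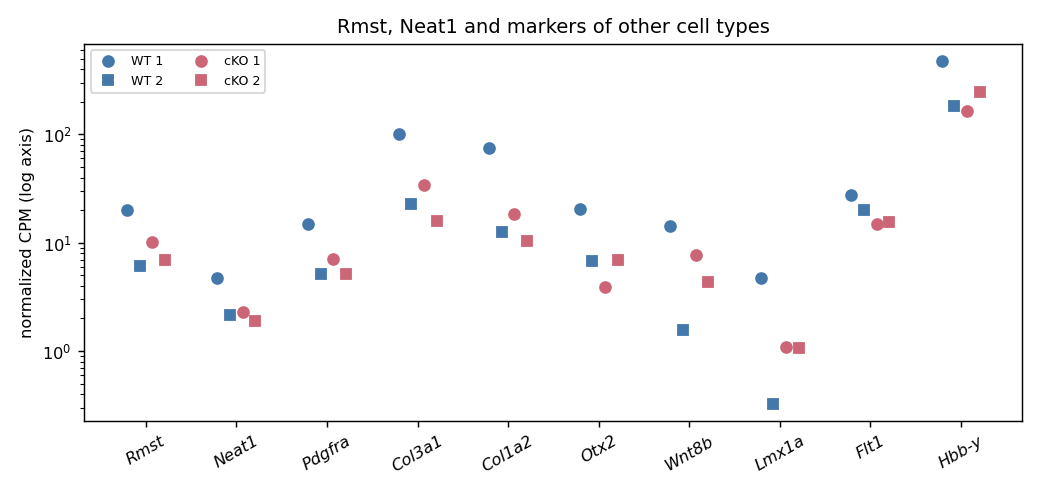
Normalized CPM (y axis, log scale) of Rmst, Neat1 and 8 marker genes of mesenchyme, dorsal midline, endothelium and blood (x axis) in each of the 4 libraries, with circles for replicate 1 and squares for replicate 2. The 8 markers were picked because they were high in WT 1, so their highest library was fixed by the choice. Rmst stood at 20.2 and Neat1 at 4.72 normalized CPM in WT 1, also their highest library.

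Sox2ot (ENSMUSG00000105265, chromosome 3 from 34104270 to 34682619, plus strand) was counted 1109 times in WT 1, 1069 times in WT 2, 954 times in cKO 1 and 1157 times in cKO 2. The lowest and the highest library were both cKO. Mean levels were 60.9 ± 4.05 normalized CPM in WT and 58.4 ± 8.92 in cKO (SD, n = 2 each), and the log2 fold change was -0.06 (standard error 0.17, 95% interval -0.46 to 0.34). Sox2, the progenitor factor that lies in an intron of Sox2ot on the same strand and shares no exon base with it, had 3679, 3403, 3449 and 2985 counts, with a log2 fold change of -0.16. The ratio of Sox2ot to Sox2 counts was 0.301 and 0.314 in WT and 0.277 and 0.388 in cKO. The ratio was thus lowest and highest in cKO and did not separate the groups.

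Pantr1 (ENSMUSG00000060424, chromosome 1 from 42590782 to 42694842, minus strand) was the only one of the 8 with a higher mean level in cKO. The WT libraries held 1740 (WT 1) and 1701 (WT 2) counts, the cKO libraries 1939 (cKO 1) and 1843 (cKO 2), and the gap between the groups was 3.07% in normalized CPM. Mean levels were 96.2 ± 5.44 in WT and 105 ± 2 in cKO (SD, n = 2 each). The log2 fold change was 0.12 (standard error 0.14, 95% interval -0.21 to 0.45), and it remained between 0.08 and 0.18 with single libraries left out. Pou3f3, a factor of upper-layer and progenitor cells whose start lies 926 bases away on the opposite strand, had 8285, 10115, 9497 and 8887 counts with a log2 fold change of -0.01. The ratio of Pantr1 to Pou3f3 counts was lowest in WT 2 (0.168) and 0.204 to 0.21 in the others. Of the 8 coding neighbours of these RNAs that were tested, none had an unadjusted p under 0.05 and none had groups that did not overlap.

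**Figure D4:**
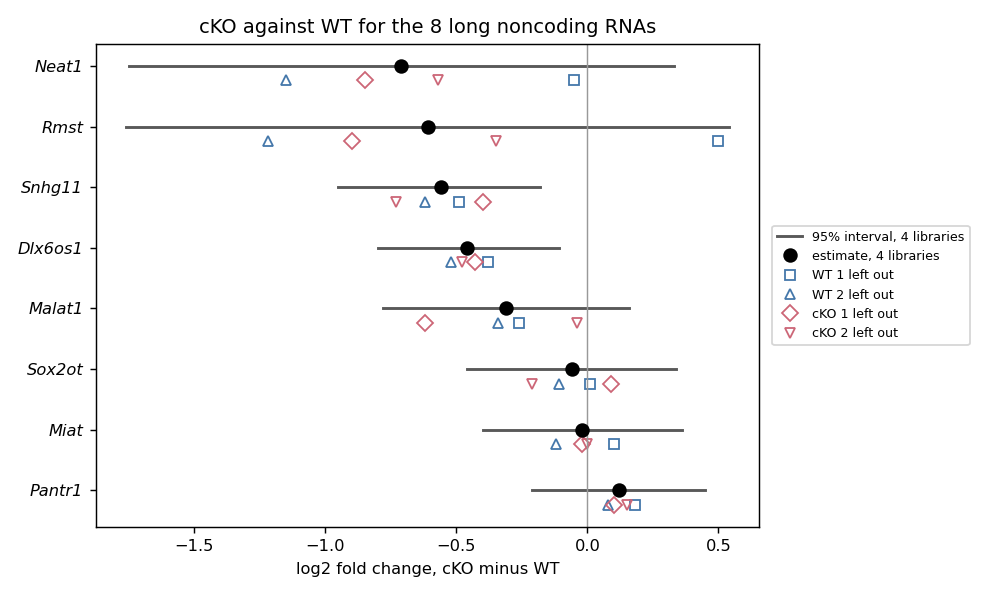
Log2 fold change of cKO against WT (x axis) for the 8 RNAs (y axis), with filled points and lines for the estimate and 95% interval from 4 libraries and open symbols for the estimate with 1 library left out. The intervals of Snhg11 and Dlx6os1 lay below 0, and those of the other 6 included 0. Rmst ran from -1.22 to 0.50 when single libraries were left out.

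Levels were compared between the RNAs per kilobase of annotated exon, as normalized CPM per kilobase averaged over the 4 libraries. On this scale Miat was highest at 108, followed by Malat1 at 45.4, Pantr1 at 22.5, Dlx6os1 at 14.4, Snhg11 at 12.7, Sox2ot at 5.15, Rmst at 1.46 and Neat1 at 0.133. Neighbours in this order had ranges over the libraries that did not overlap, apart from Dlx6os1 and Snhg11, although Dlx6os1 was the higher of that pair in every library. The place of several RNAs depended on the length used. With the longest transcript in place of all exons, Pantr1 was 48.1, Snhg11 18.5, Sox2ot 17.1, Dlx6os1 16.2 and Rmst 3.76, so that Pantr1 came above Malat1, and Snhg11 and Sox2ot came above Dlx6os1. Miat stayed first and Neat1 last. For Neat1 (20771 bases) and Malat1 (6983 bases) both lengths were the same, so this alternative could not move their levels. For Miat they were nearly the same, at 9293 and 9163 bases.

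**Figure D5:**
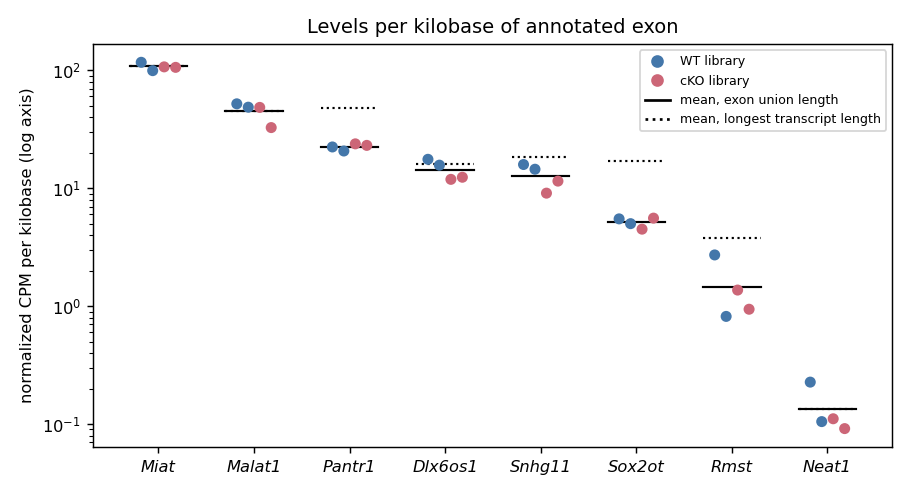
Normalized CPM per kilobase of annotated exon (y axis, log scale) of the 8 RNAs (x axis), with a point for each library, a solid line at the mean and a dotted line at the mean computed with the longest transcript length. Miat was highest at 108 and Neat1 lowest at 0.133.

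Other long noncoding RNAs of the brain gave a background for the 8. Of 28 tested from a list of 40, 18 had a log2 fold change below 0, 6 were lower in both cKO libraries, 1 was higher in both, and the median was -0.13. Mir124a-1hg, the host of the neuronal microRNA miR-124, had an unadjusted p under 0.05, at 5877 and 5102 counts for WT against 4459 and 4130 for cKO (log2 fold change -0.37). Meg3 and Rian, imprinted RNAs of one locus, had log2 fold changes of -0.33 and -0.30 and the former was the most abundant of the list. Dlx1as, which lies antisense to Dlx1 and was picked from the list after its values were seen, stood at 242 and 212 counts for WT against 164 and 179 for cKO. It was low in both cKO libraries, as Dlx6os1 was, with a log2 fold change of -0.42. Over the 1231 tested genes of long noncoding biotypes the median was -0.02, with 15.8% lower in both cKO libraries and 13.4% higher in both.

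The genes closest to Dlx6os1 in pattern were Ptch1, the Hedgehog receptor, with 788, 746, 545 and 579 counts, Sbsn and Syt4, at distances of 0.04 to 0.09, and 64 genes lay within 0.2. For Snhg11 they were Frem2, Apcdd1, an inhibitor of Wnt signalling with 1823, 2005, 1212 and 1408 counts, and A730017C20Rik, at 0.13 to 0.15, with 17 genes within 0.2. Distances are over only 4 libraries and carry no test. Miat, Sox2ot and Pantr1 spanned less than 0.5 on the log2 scale, so no similar genes were sought for them. Neural progenitor markers, the cells in which Nestin-Cre acts, had a median log2 fold change of 0.08 over 13 genes, with none past an unadjusted p of 0.05.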

How the data were processed

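RNA of 4 libraries (2 labelled WT, 2 labelled cKO) was extracted with TRIzol and sequenced on an Illumina HiSeq instrument by the authors. Their processing notes name TopHat2 2.0.12, Bowtie2 2.2.3, HTSeq 0.6.0 and mm9. The gene positions of the deposited table nevertheless match GRCm38 (GENCODE M21), within 1 base of a start or end for 97.3% of 27232 genes, and were read as such. The strand setting of the counting is not given in the sources used here. The authors deposited raw read counts per gene, which were used, beside normalized values, fold changes and p-values of their own, which were not. Of 27304 rows, 11 (0.0403%) were blank and left out. A second table held identical counts for the 21342 genes it shares. Rare genes are limited by depth, since a count of 0 allows up to 3 counts, or 0.162 to 0.174 CPM.

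The test was that of edgeR 4.0.16 under R 4.3.3 (TMM, filterByExpr, quasi-likelihood test, no covariate), with Benjamini-Hochberg adjustment over 16145 genes. Alternatives were RLE and upper-quartile scaling, 2 other filters, DESeq2 1.42.0, the replicate number as a block and leaving out each library. The procedure was tested on simulated counts, whose spread followed the mean level alone and in which no library deviated. Only genes above 5 CPM were changed. The shares found do not give the power in the real libraries, where WT 1 stood apart. Of 100 genes changed 2-fold among 15840, 67 had an adjusted p under 0.05, and of 100 changed 4-fold all 100 did, with 10 unchanged genes called. The 8 RNAs and the 11 other gene lists were chosen with earlier results of these data known. From each list the text names genes past a threshold and at most the 4 most abundant, for coding neighbours, ventral and dorsal midline markers any gene, and for each RNA the 3 genes with the smallest Euclidean distance of mean-centred log2 normalized CPM, among genes with a mean of at least 5 CPM. Exceptions are stated. Promoter and microRNA sequences are from RefSeq (GRCm38.p6).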

Additional observations from a re-analysis of the deposited data

How the results depend on the processing

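With all 4 libraries kept, the log2 fold changes of the 8 RNAs had the same sign in 48 of 48 values under 6 alternatives, and none of the 8 had an adjusted p under 0.05 in any alternative. Leaving out single libraries leaves 1 in its group, which is then assumed to vary like the other group. Signs turned without WT 1 for Miat (0.10), Rmst (0.50) and Sox2ot (0.01), and without cKO 1 for Sox2ot (0.09), with ranges of -0.12 to 0.10, -1.22 to 0.50 and -0.21 to 0.09. Without WT 2 the log2 fold change was -1.15 for Neat1 and -1.22 for Rmst, past the 2-fold change of the study's thresholds. With all 4 libraries neither RNA reached a 2-fold change in any alternative. Groups were apart for 4 to 7 of the RNAs with a library left out. With 1 library against 2, groups come apart more often by chance, and no share over all genes was computed there. With all 4 libraries, groups were apart for 4 RNAs in the main fit. They were apart for 3 with RLE size factors, with a minimum of 10 counts and with DESeq2, where Malat1 was lost. Of all genes, none had an adjusted p under 0.05, but 65 did without a filter, 5 with the replicate block and 0 to 116 with a library left out (116 without WT 2, 105 without cKO 1, 7 without WT 1). The 131 genes at the study's thresholds became 405 without a filter, 72 with a minimum of 10 counts per library, 65 with DESeq2, 208 with the replicate block and 104 to 531 with a library left out (531 without cKO 1, 476 without WT 2). The cause was not tested. Replicate numbers are shared by the groups, but no label says what they mark, and deviations of same-numbered libraries correlated at 0.139 over 16145 genes. Per kilobase of the longest transcript, an alternative chosen after seeing the data, levels moved to 3.76 for Rmst, 17.1 for Sox2ot, 48.1 for Pantr1 and 18.5 for Snhg11.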
